A study of Homo sapiens with 10 samples.

Results

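Among the mRNAs recovered with the m6A reader YTHDF1 from HCT116 cells, 7 genes that encode very large proteins are described here. Of the non-histone genes with input above the median, they had the largest ratios of immunoprecipitate to input. FAT1 is a giant cadherin of the cell surface and PLEC (plectin) a plakin that ties intermediate filaments to junctions and hemidesmosomes. DYNC1H1 is the heavy chain of cytoplasmic dynein, the motor that moves cargo towards microtubule minus ends. UBR4 and HUWE1 are ubiquitin ligases, UBR4 acting on N-degrons and HUWE1 through a HECT domain. EP400 is an ATPase of the TIP60 chromatin-remodelling complex, and TNRC18 carries a BAH domain, a fold found in chromatin proteins. They were chosen by rank: of 1955 non-histone genes whose input level lay above the median of the RIP list, these 7 had the highest deposited ratio, and they are 7 of 10934 distinct gene names in all files. That ratio is therefore a description here and was not tested.

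N6-methyladenosine (m6A) is placed on nascent mRNA by the METTL3 methyltransferase complex at adenosines in a short consensus, preferentially in long internal exons and near stop codons. YTHDF1 is a cytoplasmic protein that binds the mark through its YTH domain and has been linked to translation of the bound mRNA. In RNA immunoprecipitation (RIP), RNA bound to an antibody-captured protein is sequenced beside the input lysate. In m6A-seq, RNA fragments are enriched with an antibody against the modified base and peaks are called over input.

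The series studied HCT116, a human colorectal cancer cell line, in 10 samples, all from cells given cycloheximide at 100 ug/ml for 3 min. Ribosome profiling and mRNA-seq each had 2 libraries after YTHDF1 knockdown (shY1-1 and shY1-2, here knockdown 1 and 2) and 1 control library with a hairpin named shGFP. YTHDF1 RIP had 1 library and 1 whole-lysate input, and m6A-seq had 2 replicates, all of control genotype. The design text gives the question as which translation in these cells depends on YTHDF1. Nothing in the labels says that libraries came from separate cultures. With a single control library per assay, the variation behind the p-values is how far knockdown 1 and knockdown 2 differed within each assay. The controls add nothing to it. The labels do not say whether shY1-1 and shY1-2 are different hairpins or repeats of the same one. That variation may therefore be technical or include a difference between hairpins, which was not tested. YTHDF1 itself had mRNA signals of 8.62 and 7.81 in the knockdown against 27.4 in the control, and footprint signals of 17.0 and 19.9 against 61.4, so every knockdown library lay below its control, although neither difference passed over all genes in limma (adjusted p = 1.00 and 0.552). Of 12 colorectal epithelial markers 6 were listed in the expression table, EPCAM, CDH1, CDX2 and 3 keratins, with summed mRNA signals of 5499 and 3403 in the knockdown and 3920 in the control, while 3 of 10 fibroblast markers were listed and summed to 7.13 and 6.35 in the knockdown and 7.50 in the control. Of 8 blood markers CD68 alone was listed, with mRNA signals of 4.98 and 19.9 in the knockdown and 19.9 in the control, and footprint signals of 10162 and 9485 against 15090. Summed footprint signals were 3149 and 1808 in the knockdown and 2339 in the control for the epithelial markers, and 17.0 and 9.08 against 13.6 for the fibroblast markers. None of the listed markers was at 0, and the part of these levels in the results was not tested.

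All 7 genes had m6A windows in both replicates, and the data give for each window a called m6A position with its surrounding 5 letters. The site with the highest mean ratio of each gene that was called at the same position in both replicates is shown here because it is the strongest site found in both replicates, although several of these genes had a higher ratio elsewhere in a single replicate. Letters run 5′ to 3′, the capital marks the adenosine at the centre of the consensus, and positions count bases along the transcript used by the authors, which the files do not name. Whether a position is coding or untranslated is therefore not given.
EP400, position 10131: aaAca
TNRC18, position 7401: gaAcc
FAT1, position 1490: gaAct
DYNC1H1, position 7675: agAca
UBR4, position 2775: aaAct
HUWE1, position 3671: aaAct
The deposited peak ratios of these sites, m6A immunoprecipitate over input, were 14.8 and 21.3 for EP400, 11.04 and 11.6 for TNRC18, and 10.6 and 10.8 for FAT1 in replicates 1 and 2. They were 11.1 and 10.4 for DYNC1H1, 9.41 and 9.03 for UBR4, and 8.61 and 9.95 for HUWE1. The strongest PLEC site, at position 11685, had ratios of 4.91 and 4.79, lower than the strongest site of any of the other 6 genes. The authors computed these peak ratios, and they serve here to describe windows. The signals behind them are whole multiples of a fraction particular to each gene and library, so the order of ratios between genes depends on that scaling.

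In the RIP, FAT1 stood at 193 FPKM in the immunoprecipitate and 15.1 FPKM in the input, a ratio of 12.8 and the highest of the non-histone genes considered. FPKM divides fragments by transcript length and by library size, so levels can be set side by side between genes. DYNC1H1 followed with 111 against 9.34 FPKM (ratio 11.9), and PLEC with 184 against 18.1 FPKM (ratio 10.2). TNRC18 had 89.0 against 10.4 FPKM and a ratio of 8.56. UBR4 had 50.8 against 5.96 FPKM (ratio 8.51) and HUWE1 101 against 12.2 FPKM (ratio 8.32), so the ligases had almost equal ratios at input levels that differed from each other. EP400 had the lowest levels of the 7, 41.4 against 4.94 FPKM, with a ratio of 8.38, and its input lay just above the median of the list, at 4.90 FPKM. The ratios ran from 8.32 to 12.8, a range whose floor is set by the choice of the genes, and the inputs from 4.94 to 18.1 FPKM. With 1 library on each side the ratios have no replicate check, and no mock immunoprecipitate is among the samples analysed here.

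**Figure D1:**
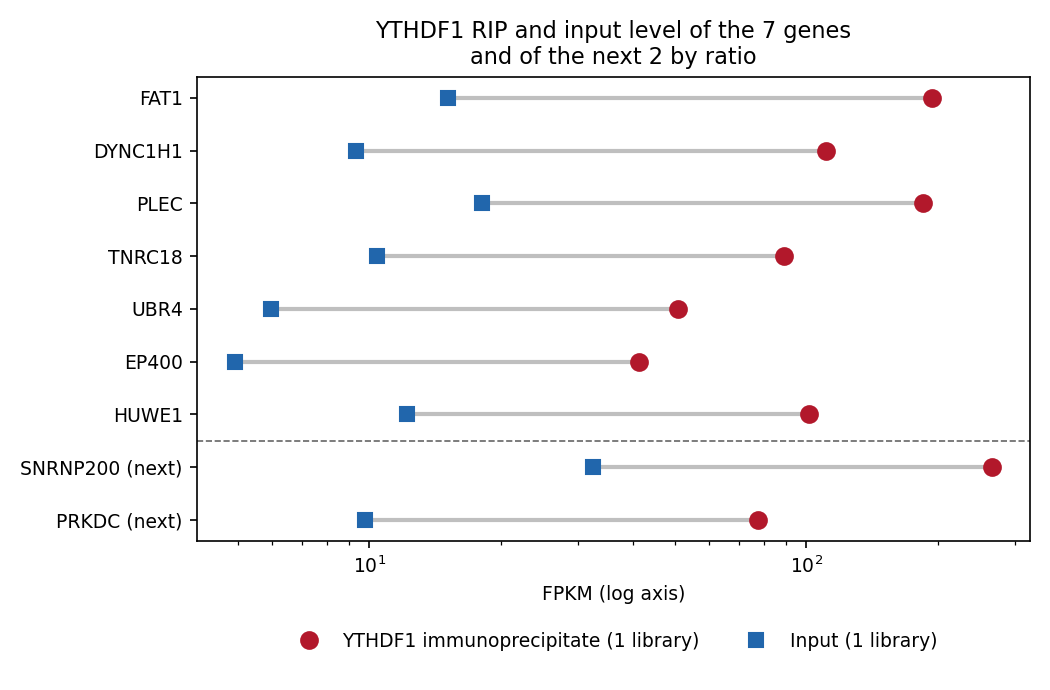
FPKM in the YTHDF1 immunoprecipitate (circles) and the input (squares), on a log axis, for the 7 genes and, under the dashed line, the next 2 non-histone genes by ratio, with 1 library each. The grey bars of the 7 genes span ratios of 8.32 to 12.8, and that of SNRNP200, just outside, a ratio of 8.18.

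The boundary of the group is not a gap. SNRNP200, a helicase of the spliceosome, lay just outside at 266 against 32.4 FPKM (ratio 8.18), next to HUWE1 at 8.32 just inside. PRKDC, the catalytic subunit of DNA-dependent protein kinase, had a ratio of 7.91. DLG5, a scaffold protein of cell junctions, and TLN1, which links integrins to actin, had ratios of 7.12 and 6.66. The share of genes at or above the lowest ratio of the group, 0.358% of the 1955, is fixed by the rule and nothing is read from it. The median ratio of those 1955 genes was 2.10, and the list itself starts at a ratio of 1.5. In addition 8 histone genes with input above the median reached the ratio of HUWE1. Without a limit on input 18 non-histone genes did, and the 11 added ones, named here after their values were seen, were PLCG2, RNF213, HERC2, AHNAK, TRIO, MDN1, MTCL1, RBM15, SMG1, FYCO1 and PCNX. Several of these encode giant proteins too. RNF213 and HERC2, a pair of large ubiquitin ligases, had ratios of 15.7 and 13.5 at inputs of 1.43 and 2.61 FPKM, and AHNAK, a very large scaffold protein, had 13.4 at 4.17 FPKM.

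The reach of the m6A windows shows how long the transcripts are, since the end of the last window is a lower bound on the length of the transcript used. It lay at 15375 bases for UBR4, 14275 for DYNC1H1, 13950 for FAT1, 13750 for HUWE1, 13300 for PLEC, 10650 for EP400 and 8575 for TNRC18. Over all 9565 genes with a window the median was 1925 bases. Of the 8 genes with the farthest windows among the 1861 RIP genes considered that had one, 6 belonged to the 7, and the other two were PRKDC, at 13325 bases, and SOD2, at 12075. The genes themselves span 61.6 to 154.6 kb of the genome. In GRCh38.p14 FAT1 lies on chromosome 4 from 186587794 to 186726696, DYNC1H1 on chromosome 14 from 101964573 to 102056443, and PLEC on chromosome 8 from 143915153 to 143976745. TNRC18 lies on chromosome 7 from 5306811 to 5423834 and UBR4 on chromosome 1 from 19074510 to 19210266. EP400 lies on chromosome 12 from 131949942 to 132080460 and HUWE1 on chromosome X from 53532096 to 53686719.

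Across the 1861 genes the RIP ratio rose with the reach of the windows. The median ratio was 1.89 for genes whose last window ended within 1000 bases (117 genes), 1.89 up to 2000 (500 genes), 2.15 up to 4000 (887), 2.53 up to 6000 (257), 3.96 up to 8000 (74) and 5.32 beyond (26). Leaving out the 7 genes, the 19 others beyond 8000 bases had a median of 4.04, a bin of few genes. Spearman's rho between the ratio and the last position was 0.395 with the 7 genes and 0.389 without them, a description across genes that share the same 2 RIP libraries. Against the number of windows in both m6A lists rho was 0.260 and against input level -0.144. The median input was 15.96 FPKM in the shortest class and 9.55 FPKM in the longest, so input level moved with reach as well, and its part in the pattern was not tested.

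**Figure D2:**
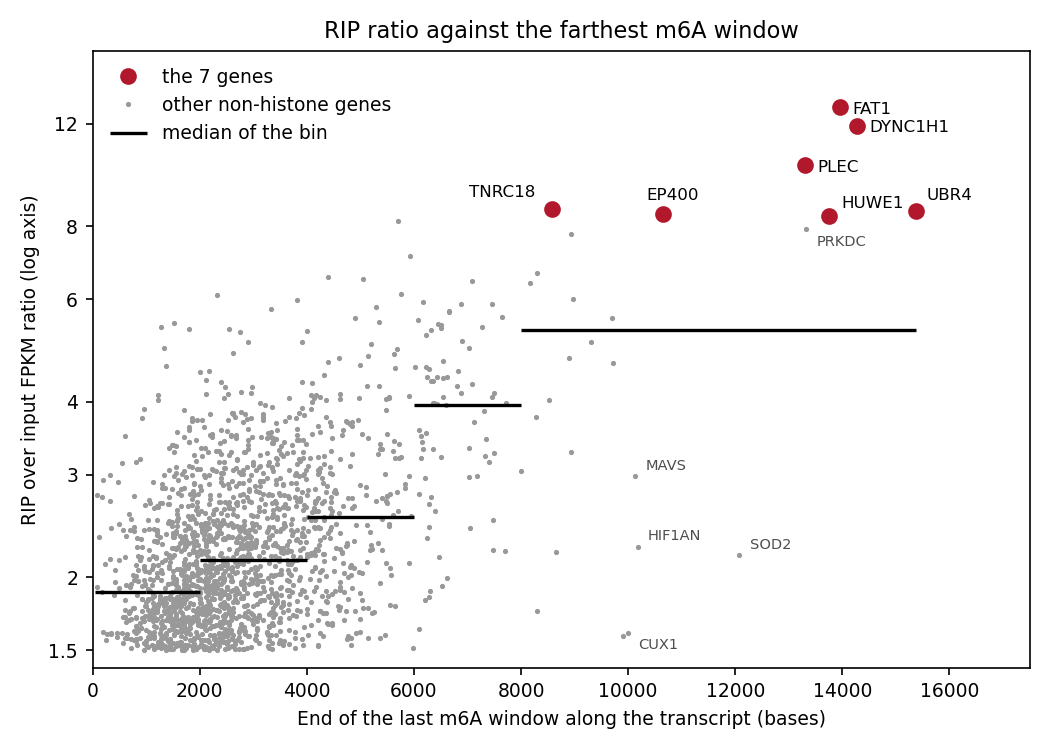
Each point is 1 of 1861 non-histone genes with input above the median of the RIP list and at least 1 m6A window, with the end of its last window in bases on the x axis and the RIP over input ratio on a log y axis. Black lines are medians within classes of last position, from 1.89 in the shortest to 5.32 beyond 8000 bases, and the 7 genes (large points) lie at ratios of 8.32 and above, which is how they were chosen.

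Several genes with far-reaching windows had low ratios. SOD2, a small mitochondrial superoxide dismutase, had windows out to 12075 bases and a ratio of 2.19, from 12.8 FPKM in the immunoprecipitate and 5.87 in the input. HIF1AN, an asparagine hydroxylase that acts on HIF, reached 10175 bases with a ratio of 2.26, and MAVS, the mitochondrial adaptor of RNA sensing, 10125 bases with 2.98. The transcription factor CUX1 reached 10000 bases at 1.61. These 4 genes are named because they stand at the far end of the reach with low ratios, and they were picked after their values were seen. Including these 4, 122 genes besides the 7 had windows reaching at least as far as those of TNRC18, the least far of the 7. Of these 73, or 59.8%, were on the RIP list with a median ratio of 5.14, against 37.9% of the 9436 other genes with a window, where the listed ones had a median of 2.28.

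The 7 transcripts carried 58 windows in replicate 1 and 71 in replicate 2. FAT1 had the most, 13 and 17, and only 35 of 8695 genes in replicate 1 and 11 of 8946 in replicate 2 had as many or more, FAT1 included. DYNC1H1 had 10 and 12, HUWE1 11 and 8, UBR4 8 and 14, EP400 7 and 7, PLEC 5 and 7 and TNRC18 4 and 6. The median gene had 2 windows in each replicate. Set against reach, however, the 7 were marked about as densely as other far-reaching genes. Their windows per kilobase of reach, averaged over replicates, ranged from 0.451 in PLEC to 1.08 in FAT1 with a median of 0.691. The median was 0.726 in the 122 other far-reaching genes and 1.16 in the 9436 genes with less far windows. Reach is the end of the last window, so a gene whose few windows end early has a high value by construction. The value of 1.16 is therefore not a like comparison. The order of the 7 by windows per kilobase did not follow their order by RIP ratio, since PLEC had a higher ratio than TNRC18, UBR4, EP400 and HUWE1 but fewer windows per kilobase than any of them, and the order over 7 genes was not tested.

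Windows of both replicates that overlapped by at least 1 base were merged into regions. The 7 genes had 80 regions, 47 seen in both replicates (58.8%), 10 in replicate 1 only and 23 in replicate 2 only. In 39 of the 47 the same position was called in both. Of the windows, 82.8% in replicate 1 and 67.6% in replicate 2 overlapped one of the other replicate, against 74.5% and 72.6% over all genes. The windows seen in a single replicate were weaker. Their median ratio was 3.73 in the 33 of the 7 genes against 5.90 in the 96 overlapping ones, and 57.6% of them, against 18.8%, lay under a ratio of 4, close to the limit of 3 at which the lists start. Over all genes single windows were weaker too, with a median of 4.52 against 5.97 and 38.4% against 19.0% under a ratio of 4. The 48 pairs of overlapping windows differed between replicates by a median of 1.10-fold and at most 1.5-fold. These pairs hold only windows listed in both replicates, so windows seen in a single replicate do not enter this figure. The FAT1 window of replicate 2 that starts at 2675 is paired with the replicate 1 windows at 2700 and at 2850. Both replicates were set against the same input: the 19 windows of these genes with identical limits in both lists had identical input signals, so the agreement of the ratios does not extend to the input.

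**Figure D3:**
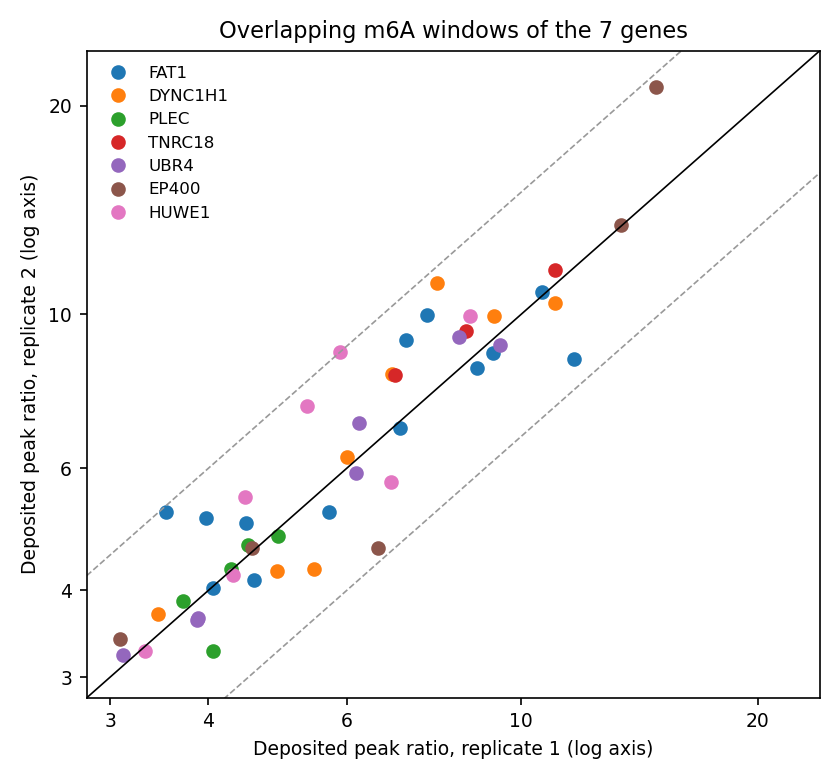
Deposited m6A peak ratio in replicate 2 against replicate 1, both on log axes, for the 48 pairs of overlapping windows of the 7 genes, coloured by gene. The solid line marks equality and the dashed lines 1.5-fold, within which all pairs lie, with EP400 highest at 14.8 and 21.3 and PLEC among the lowest.

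The position of the windows differed from gene to gene. In FAT1 they formed a group at the start, with 5 regions between 375 and 1550 bases. Another group lay at the far end of the FAT1 windows, with 3 regions from 13425 to 13950 that were all seen in both replicates. The called positions of the end group are shown as the farthest sites of FAT1 found in both replicates.
FAT1, position 13513: agAct
FAT1, position 13733: gaAcc
FAT1, position 13994: gaAcc
Their ratios were 4.05 and 4.04, 11.7 and 8.62, and 8.79 and 8.37 in replicates 1 and 2. Between 8450 and 13425 bases FAT1 had no window in replicate 1 and 3 in replicate 2, with ratios of 3.27, 3.25 and 6.68. DYNC1H1 had strong regions early, from 1425 to 1825 bases with ratios up to 11.1, at 7625 to 7725, and a run of 4 shared regions from 10275 to 11700. Its stretch from 2550 to 6000 was free of windows in both replicates, and a window at 14225 to 14275 with a ratio of 4.97 was in replicate 2 only.

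PLEC had a shared region at 2775 to 2950, then none for 5875 bases in either replicate, and its remaining windows lay from 8825 bases on. All its ratios were between 3.27 and 4.91. TNRC18 had few windows, most of them strong, with medians of 9.77 and 9.12 in replicates 1 and 2 against 5.63 and 5.53 over all windows of each list. Its widest merged region, 7250 to 7575, had ratios of 11.04 and 11.6. At the far end of its windows replicate 1 had one from 8400 to 8500 with a ratio of 11.9. Replicate 2 had the adjoining window from 8500 to 8575 with 9.20, and the pair count as separate regions since they abut without overlap. The windows of the ligases were spread widely. UBR4 ran from 1625 to 15375 bases, with ratios above 8 at 2700 to 2775 and 4275 to 4425 in both replicates, and with ratios from 3.01 to 3.87 in its windows beyond 7750 bases. HUWE1 ran from 925 to 13750, with none between 3800 and 6725 in either replicate, with its strongest shared region at 3625 to 3800 (8.61 and 9.95) and another at 8525 to 8750 (5.89 and 8.82). EP400 differed in that its strongest shared regions lay together near the far end of its windows, from 10000 to 10550 bases. Their ratios were 14.8 and 13.4 in replicate 1 and 21.3 and 13.4 in replicate 2.

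The highest single ratios of the group were each seen once. EP400 had 41.4 at 4275 to 4325 in replicate 1, where its input signal was 4.33 against 39.1 in the strongest shared window of that replicate, and no window there in replicate 2. UBR4 had 23.0 at 3675 to 3750 in replicate 2, over an input signal of 10.5, and no window there in replicate 1. Over all 129 windows of the 7 genes the median ratio was 5.33, and over all 49349 windows of both lists it was 5.59. Of the 129 summits 61, or 47.3%, lay at 8000 bases or beyond and 20 under 2000, against 1.55% at 8000 or beyond over all genes, few of which reach that far.

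**Figure D4:**
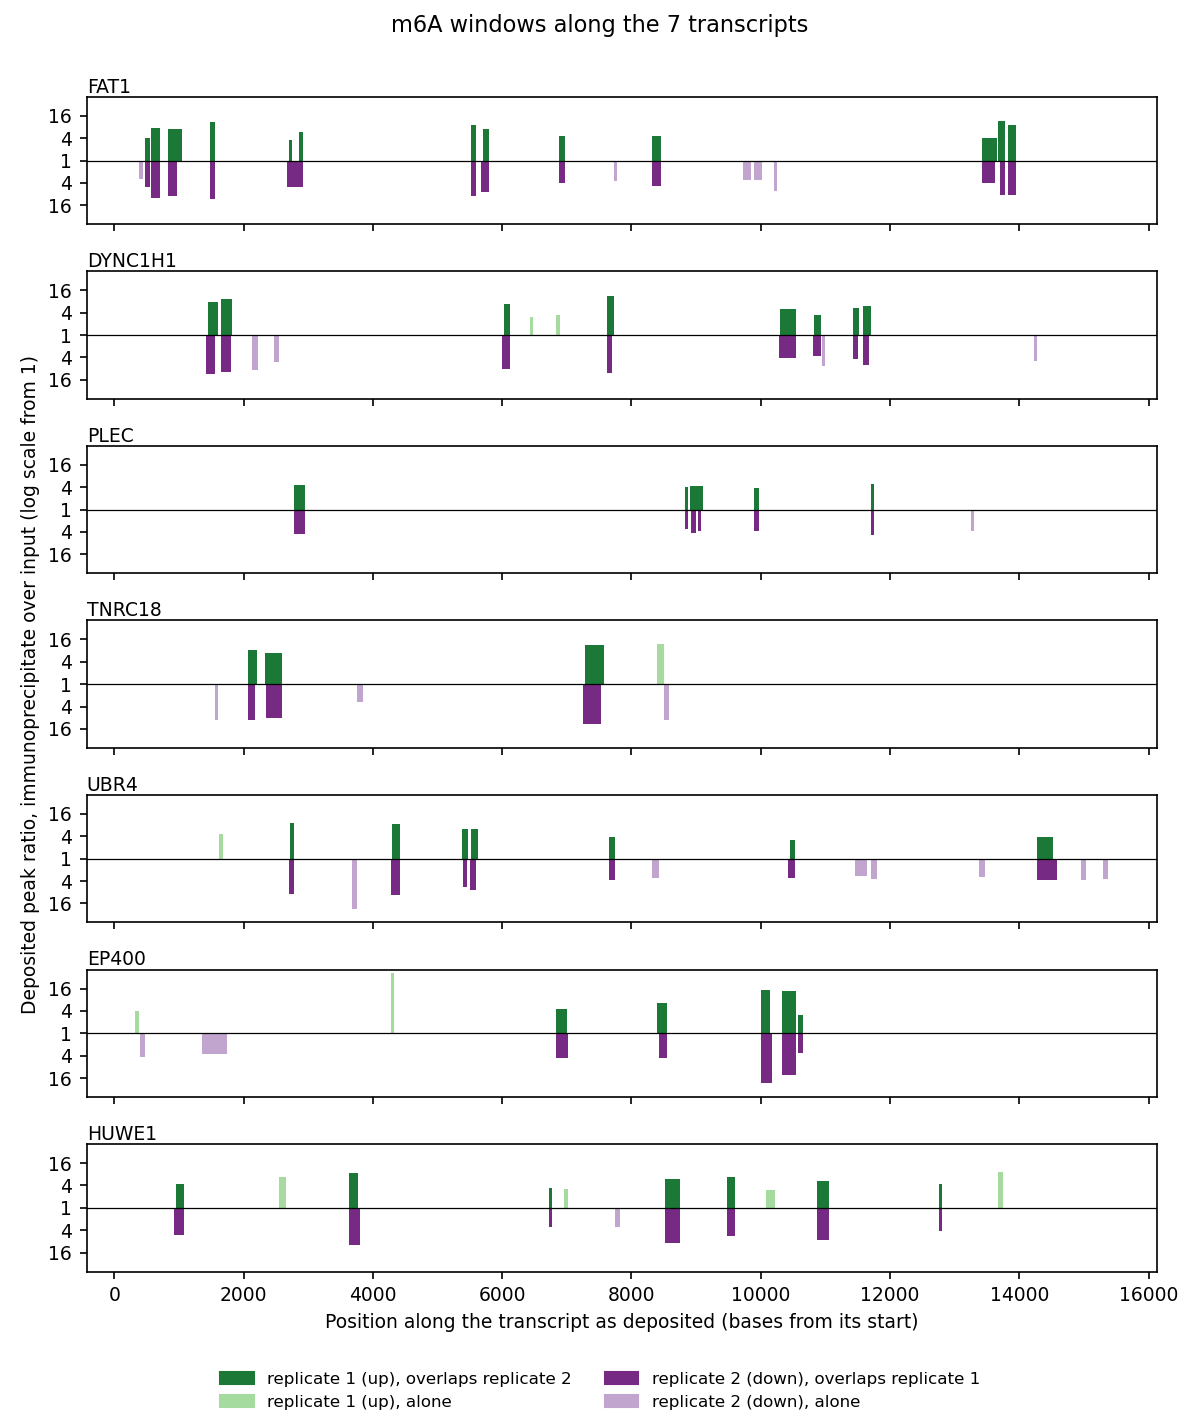
m6A windows along the 7 transcripts, drawn to scale in bases from the transcript start as deposited, with bar height showing the peak ratio on a log scale from 1 (replicate 1 upwards, replicate 2 downwards). Dark bars overlap a window of the other replicate and pale bars do not; the FAT1 end group from 13425 bases and the EP400 group from 10000 to 10550 are dark in both directions, and the tallest bar, EP400 at 41.4, is pale.

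The letters around the called sites also varied. Every called site in the lists has a purine in the first and second place, then A and C, then A, C or T. Counting each position once, the 7 genes had 90 distinct sites, of which 27.8% read ggAcn, 25.6% agAcn, 25.6% gaAcn and 21.1% aaAcn. Over all genes (35015 sites) these shares were 29.9%, 25.4%, 23.3% and 21.4%. The last letter was C in 41.1% of the sites of the 7 genes and in 31.8% of all sites, T in 25.6% and 31.2%, and A in 33.3% and 37.1%. Within the group HUWE1 had 8 of 13 sites in aaAcn and 1 in ggAcn, while FAT1 had 1 of 19 in aaAcn and DYNC1H1 6 of 15 in ggAcn. These are small counts and were not tested. The called site lay inside its window in 75.9% and 74.6% of the windows of the 7 genes in replicates 1 and 2, and in 80.9% of all windows in each list.

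Of the 7 genes DYNC1H1 and EP400 were listed in the table of footprints and mRNA, and the others have no row there under their symbol or any synonym in the RefSeq table. Of the 122 other far-reaching genes 54.9% were listed and of the 9436 genes with less far windows 59.7%. DYNC1H1 had mRNA signals of 112 and 87.9 in knockdown 1 and 2 and 74.98 in the control, and footprint signals of 47.8 and 22.8 against 30.6. Its mRNA was higher in both knockdown libraries, as it was for 30.9% of the 6782 genes tested, while its footprints lay on opposite sides of the control. The log2 changes were 0.40 ± 0.49 (SE, 95% interval -0.78 to 1.58, limma adjusted p = 1.00) for mRNA and 0.11 ± 0.49 (-1.07 to 1.29, limma adjusted p = 0.950) for footprints, on the log2(signal + 1) scale, which understates changes of low genes. Without the footprint library of knockdown 1 the footprint change was -0.41, and without that of knockdown 2 it was 0.63, so that value depends on which library is taken. In bulk libraries a change in RNA per cell and a change in which cells are present cannot be told apart.

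EP400 had mRNA signals of 12.6 and 12.9 in the knockdown and 14.1 in the control, and footprint signals of 2.84 and 3.16 against 3.62. Both assays were lower in both knockdown libraries, as for 29.9% of genes in mRNA and 51.2% in footprints. The log2 changes were -0.14 ± 0.46 (SE, 95% interval -1.25 to 0.97, limma adjusted p = 1.00) and -0.21 ± 0.46 (-1.32 to 0.90, limma adjusted p = 0.894). The SE is the same for mRNA and footprints because the fit pooled the spread of both assays for each gene. The footprints of all genes had a median change of -0.28, relative to which EP400 lay at 0.07 and DYNC1H1 at 0.39. With each library centred on its median the footprint change of EP400 was positive, at 0.080, so its direction depends on the scaling. The change in translational efficiency, taken as the footprint change minus the mRNA change in that fit, was -0.29 ± 0.69 for DYNC1H1 (95% interval -1.96 to 1.38) and -0.07 ± 0.65 for EP400 (-1.64 to 1.5), both with limma adjusted p = 0.996, and the median over all genes was -0.27. The value for DYNC1H1 was 0.23 without the footprint library of knockdown 2, and that for EP400 was 0.21 after median centring, so neither direction was stable. Both intervals for translational efficiency include a 2-fold change in either direction, so a change of that size was not detectable here. Neither gene passed in any contrast. Over all genes 0.0295% passed in footprints, and 0% in mRNA and in translational efficiency, where 600, 32 and 185 genes had an unadjusted p under 0.05.

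**Figure D5:**
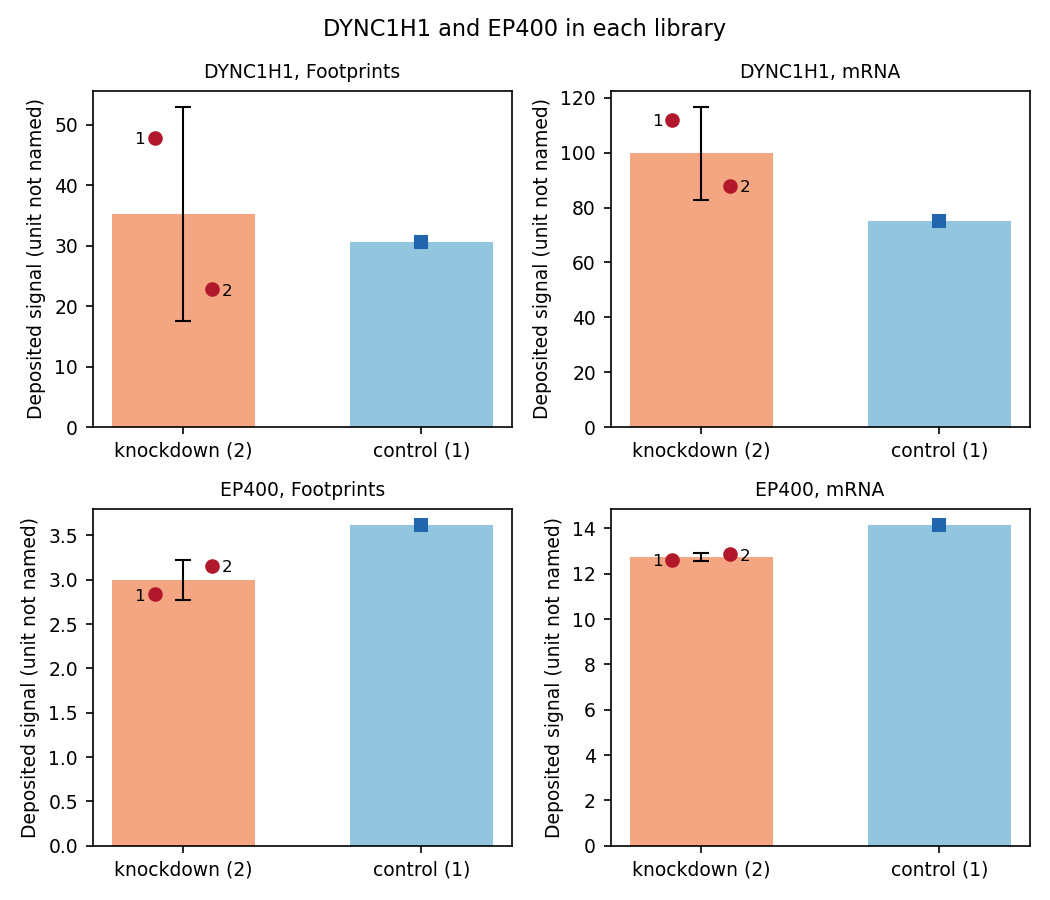
Deposited footprint and mRNA signal of DYNC1H1 and EP400 in each library, with bars at the knockdown mean (2 libraries, numbered points, error bar 1 SD) and at the single control library. The footprint points of DYNC1H1, 47.8 and 22.8, lie on both sides of the control at 30.6, and the EP400 points lie below the control in both assays.

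In each library both genes had a low footprint signal for their mRNA signal. The footprint to mRNA signal ratio of DYNC1H1 was 0.428 and 0.259 in knockdown 1 and 2 and 0.408 in the control, where all genes had medians of 1.97, 1.71 and 2.29. That placed it at percentiles 11, 5.8 and 7 of all genes. EP400 had 0.225 and 0.245 in knockdown 1 and 2 and 0.256 in the control, at percentiles 5.7, 5.4 and 3.3. Both genes were thus low in every library, and the low ratio was there in the control as in the knockdown. The 67 other listed genes with windows out to at least 8575 bases had medians of 1.20 and 1.23 in knockdown 1 and 2 and 2.04 in the control. The 30 of them that reached as far as EP400 had medians of 0.901, 1.05 and 1.84 in the same libraries. Of the 67 genes 16, 4 and 2 lay at or below DYNC1H1 in knockdown 1, knockdown 2 and the control. The 1277 other non-histone RIP genes in the table with input above the median had medians of 1.403, 1.12 and 1.48, also under those of all genes. The profiles over the 6 libraries closest to the mean profile of DYNC1H1 and EP400, each gene centred within each assay, were those of MAPK1IP1L, PPP2R5E and UBA3, at Euclidean distances of 0.052, 0.057 and 0.068 on the log2 scale. DYNC1H1 and EP400 themselves each lay 0.50 from that mean, with a median over all genes of 0.78, so the mean profile describes neither of them closely.

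Several relatives of the 7 genes also had high RIP ratios. The relatives and partners named from the RIP list were picked by ratio after their values were seen. On a list of large ubiquitin ligases 12 of 20 genes besides UBR4 and HUWE1 were on the RIP list. Their median ratio was 4.55 against 2.28 for all 3931 genes listed. Of all genes with an m6A window besides the 7, 38.2% were on the RIP list. Of the 122 other far-reaching genes 59.8% were, with a median ratio of 5.14. RNF213 and HERC2 stood at 15.7 and 13.5 with windows out to 14800 bases or farther, and NEDD4L, ITCH and UBE3C, members of the HECT family with less far windows, at 1.71, 2.29 and 1.75. Among plakins and hemidesmosome genes 7 of 12 besides PLEC were listed with a median of 4.04, led by MACF1, the spectraplakin that crosslinks actin and microtubules, at 7.30 from 14.8 FPKM against an input of 2.03. MACF1 had windows out to 22975 bases and 28 in each replicate. EVPL, PPL and DSP, the envoplakin, periplakin and desmoplakin genes, stood at 5.32, 4.58 and 4.04. Of 9 other cadherins of the FAT, Dachsous and CELSR group 2 were listed, CELSR1 and CELSR2, at 7.55 and 6.43. Their inputs of 1.23 and 1.32 FPKM were close to the 1 FPKM at which the RIP list starts. Both BAH-domain genes listed beside TNRC18 were on the RIP list, BAHCC1 at 7.02 and BAHD1 at 2.42, over inputs of 2.00 and 2.51 FPKM. These inputs and those of CELSR1 and CELSR2 lay under the 4.90 FPKM that bounded the choice of the 7 genes.

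Most partners of the dynein heavy chain and of EP400 were not listed, which holds for most genes too. Of all genes with an m6A window besides the 7, 38.2% were on the RIP list. The median ratio of the whole RIP list was 2.28, and the medians of both sets of partners lay near it. Of 26 dynein and dynactin genes besides DYNC1H1, 6 were listed with a median of 2.12. DCTN1, the p150 subunit of dynactin, stood at 234 against 78.1 FPKM, a ratio of 2.99, and DYNC1LI2, a light intermediate chain, at 1.92, against 11.9 for the heavy chain. BICD2, a cargo adaptor, had the highest ratio of the list at 4.24. In the TIP60 and SRCAP complexes 6 of 19 genes besides EP400 were listed with a median of 2.09. The scaffold TRRAP and the ATPase SRCAP, which are very large as well, stood at 6.32 and 4.67, and BRD8 and EPC1 at 2.23 and 1.55. These lists hold between 2 and 26 genes besides the 7, their medians cover only genes that passed the limits of the RIP list, and no list was tested against the others.

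In footprints and mRNA no listed relative passed. The 15 dynein and dynactin genes tested, DYNC1H1 included, had a median footprint change of -0.52 against -0.28 over all genes, with 0 of 15 called in limma and 1 with an unadjusted p under 0.05. DYNLL1, a dynein light chain, had footprint signals of 329 and 377 in the knockdown against 646 in the control (limma adjusted p = 0.552). The 13 TIP60 and SRCAP genes tested had a median of -0.21 with 0 called in limma and 0 at an unadjusted p under 0.05. RUVBL2, an ATPase shared by these complexes, had 1765 and 1258 against 1950 (limma adjusted p = 0.691). The 14 genes tested of the large ubiquitin ligase list had a median footprint change of -0.40 and the 9 plakin and hemidesmosome genes, which include the epithelial markers KRT8, KRT18 and KRT19, 0.17, again with 0 called in limma, and 1 and 0 at an unadjusted p under 0.05.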

How the data were processed

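STAR and GRCh38 are named in the submitters' processing notes, without versions. The authors deposited a footprint and mRNA signal per gene in 6 libraries, in a unit the file headers do not name, so the depth is unknown and a count test was not applicable. The RIP table holds FPKM of immunoprecipitate and input with their ratio, per the file headers, and lists ratios of at least 1.5 and inputs of at least 1 FPKM. The m6A lists hold windows on a 25-base grid, called per replicate, with deposited signals in immunoprecipitate and input and their ratio (at least 3). Immunoprecipitate signals start at 150 and those of each of the 7 genes are whole multiples (tolerance 0.002) of a fraction particular to that gene and library, with divisors from 4 in EP400 to 52 in PLEC. Signals were thus scaled per gene and were not compared between genes, and their ratios between genes depend on that scaling.

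Rows with names damaged by a spreadsheet were left out, 12 of the expression and 8 of the RIP table. Signals were put on log2(value + 1), genes kept if they averaged 1 or more there (6782, with 132 removed), and a limma-trend model (limma 3.58.1, R 4.3.3) with 1 mean per assay and condition fitted, tested 2-sided with Benjamini-Hochberg adjustment at 0.05. The fit has 2 residual degrees of freedom, and the single controls were taken to be as variable as the knockdown libraries. It was also run on simulated data, with shifts far larger than the changes of DYNC1H1 and EP400. That run therefore does not show whether changes of their size could be found. Windows counted as shared when they overlapped by at least 1 base. RIP and m6A values had no test.

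The members, lists and rules were chosen with earlier results of these data known. Named were the 7 genes, YTHDF1, genes next by RIP ratio, the 3 nearest profiles, up to 4 genes per list by mean mRNA level and, after their values were seen, the genes said to be so in the text. Some genes that these rules name are not reported here. A planned comparison with genes of equal protein length was not made, since no protein table was used here, and the reach of m6A windows stood in for it.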

Additional observations from a re-analysis of the deposited data

How the results depend on the processing

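No setting brought DYNC1H1 or EP400 past the threshold in any of the 3 contrasts. Median centring and quantile normalisation turned the footprint change of EP400 positive (0.080 and 0.14) and its change in translational efficiency (0.21 and 0.26). Leaving out a knockdown library moved the footprint change of DYNC1H1 between -0.41 and 0.63 and its efficiency change between -0.81 and 0.23. With the replicate number as a block both genes kept their values and stayed uncalled (limma adjusted p from 0.858 to 1.00), while 30 genes passed in footprints, 2 in mRNA and 0 in translational efficiency over all genes. The differences between knockdown libraries correlated at 0.37 across genes between assays. A shared number stands for the same knockdown label in both assays, shY1-1 or shY1-2. Whether those libraries came from the same culture is not given. Over all genes the 2 footprint calls fell to 0 with a pseudocount of 0.1, no filter, median centring or quantile normalisation, ranged from 2 to 80 without single libraries (8 leaving out footprints of knockdown 1, 80 leaving out those of knockdown 2), and mRNA and efficiency calls ranged from 0 to 1, the call appearing without mRNA library 1. Translational efficiency cannot be had from an assay fitted alone. The cause of these shifts was not tested.

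Of the 129 m6A windows 67 had a ratio of at least 5 and 15 of at least 10, and single replicates held 58 to 71. The 96 overlapping windows were 52 and 10 at those limits and also 96 with an overlap of 50% of the shorter window. With 1 added to both FPKM values the median RIP ratio of the 7 genes was 7.90 in place of 8.56 and 9 genes reached the lowest member, against 18 with no limit on input. Added after the data were seen, rho of the RIP ratio with reach was 0.367 with overlapping windows only, and windows per kilobase of the 7 genes were then 0.469.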

Other observations

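PLCG2, which encodes a phospholipase C of immune cells, had the highest RIP ratio of all non-histone genes at or above the ratio of HUWE1, at 111, from 455 FPKM in the immunoprecipitate and 4.10 in the input, and was left out of the 7 genes only by the limit on input. Its windows ended at 8175 bases. DCTN5, a small dynactin subunit, had windows out to 10600 bases and a RIP ratio of 2.32, which sets it beside SOD2, HIF1AN and MAVS among far-reaching transcripts with low ratios.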
